A study of Arabidopsis thaliana with 11 samples.

Results

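NARS1 (AT3G15510, also NAC2), NARS2 (AT1G52880, also NAM), NAC025 (AT1G61110) and NAC075 (AT4G29230) are 4 transcription factor genes of the NAC family of Arabidopsis thaliana. They were picked by identifier out of the 28523 genes of the deposited allele count tables, with their allele counts already known. The shares of maternal and of Columbia reads below are therefore descriptions, without a test. The levels in which both alleles are summed were tested in fits over all genes.

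NAC proteins bind DNA through a conserved N-terminal domain, and many of them switch on programmes of organ boundary formation, wall thickening, senescence and cell death. NARS1 and NARS2 act redundantly in the integuments, the maternal cell layers of the ovule that become the seed coat. Their double mutant has misshapen seeds, and its integuments fail to degenerate properly. NAC075 is known as a promoter of flowering and as an activator upstream of VND7, the master regulator of xylem vessels. A seed holds 3 genetic parts. The seed coat is maternal, the embryo has equal parental doses, and the endosperm, the nutritive tissue, has 2 maternal doses to 1 paternal dose. An even gene then has a maternal share of 2 in 3 in endosperm, called the genome dose below.

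The study asked which genes of the endosperm are expressed unequally from the parental genomes. Columbia (Col) and Landsberg erecta (Ler) plants were crossed in both directions, the seeds were dissected 7 to 9 days after pollination, and reads that match one ecotype better than the other were counted. In the cross names the mother stands first. One endosperm library came from a dme mother (dme-2 in Columbia-gl, pollinated by wild-type Landsberg). One came from a fie mother (fie-1 in Landsberg, pollinated by wild-type Columbia-0). One came from a met1 father (met1-6 in a Columbia background, on a wild-type Landsberg mother). DME is a DNA glycosylase that removes DNA methylation, FIE a Polycomb subunit and MET1 the maintenance DNA methyltransferase. The dme and fie plants were heterozygous and the met1 plants homozygous, per the labels' protocols. Whether the seeds of heterozygous mothers were sorted is not given in the sources used here. Wild-type full endosperm has 2 libraries (replicate 1 Col × Ler, replicate 2 Ler × Col). Wild-type pure endosperm has 3 (replicates 1 and 2 Col × Ler, replicate 3 Ler × Col), and wild-type embryo has 3 in the same order. The labels do not say how full and pure preparations differ. Replicate 1 of pure endosperm and of embryo carries "LCM" in its title. The labels do not tie replicates to separate plants. The p-values therefore rest on the spread between libraries alone, which may be technical. No 2 libraries of a group share both cross direction and LCM title. That spread is thus what adding up group and cross effects leaves unexplained, not a spread between like libraries.

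Libraries held 358142 to 4828301 allele-assigned reads, and the LCM-titled pure library was the shallowest. The maternal share of all reads was 88.9% in dme, 77.3% in fie and 73.6% in met1 endosperm. It lay between 71.5% and 73.7% in full endosperm, between 66.9% and 69.5% in pure endosperm and between 49.4% and 52.9% in embryo. Markers of other seed tissues moved with the groups. A list of 18 seed coat genes, of which TT12, AHA10, MUM4 and CESA5 had 0 reads in all libraries, summed to 43045 normalised CPM in dme, 21342 in fie and 14319 in met1 endosperm. Normalised CPM are counts per 1000000 reads after TMM scaling, which evens out the effect of a few very abundant genes. The list summed to 16962 and 10169 normalised CPM in full endosperm, to 1209, 6156 and 3811 in pure endosperm, and to 734, 1122 and 1220 in embryo. In all endosperm libraries but the LCM-titled one, the sum was mostly TT10, the laccase of the seed coat. Without TT10 it was 10964 in dme, 4588 in fie, 3285 in met1, 3535 and 2070 in full endosperm, and 832, 2341 and 1588 in pure endosperm, so the ranges of full and pure then overlapped. Of its 14 genes with reads, 12 lay above all pure libraries in dme, 8 in fie, 10 in met1, and 9 and 8 in full endosperm, and 1, 1, 1, 2 and 2 lay below them in the same order. Genes of the endosperm list did not move together. EPR1 (AT2G27380), an extensin-like gene of the endosperm, had 365 normalised CPM in dme and 63.6 in fie, but 214506 in met1 endosperm. It had 259463 and 154138 in full endosperm, 9807, 113373 and 195637 in pure endosperm, and 3.11, 1181 and 8327 in embryo. ALE1, an endosperm subtilase, had 28.7 normalised CPM in dme, 53.5 in fie, 265 in met1, 234 and 381 in full endosperm, and 3742, 1334 and 1883 in pure endosperm. CKX2, a cytokinin oxidase of early endosperm, had 73.9 in dme and 146 in fie, against 2.44 or less in pure endosperm. In bulk libraries such as these, fewer cells of a type and less RNA per cell cannot be told apart.

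NAC025 had 0 allele-assigned reads in all 11 libraries. A gene is counted only where its transcript differs between the ecotypes, so a count of 0 does not show that NAC025 was silent, and no limit on its level is given. Among the genes whose names in the RefSeq table place them in the NAC family, 46 of 100 had no read, against 37.2% of all genes. The other 3 members summed to 11677 reads (NARS1), 765 (NARS2) and 19523 (NAC075). In the TAIR10.1 transcripts the longest exact stretch of NARS1 found in a transcript of another gene was 29 bases (in NAC047). For NARS2 it was 26 bases (NAC028) and for NAC075 28 bases (MYB120). NARS1 and NARS2 shared at most 26 bases with each other. Reads longer than these stretches cannot match another annotated transcript without a mismatch, but the read length is not given in the sources used here. Levels of different genes were not compared, because the number of ecotype differences sets how many reads a gene can have.

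NARS1 was abundant in all endosperm libraries and scarce in embryo. It had 767 normalised CPM in dme, 163 in fie and 314 in met1 endosperm. Full endosperm held 287 (Ler × Col) and 756 (Col × Ler), and pure endosperm held 501, 525 and 440. Embryo held 1.04, 18.6 and 16.4 normalised CPM, so the endosperm and embryo ranges did not overlap. Pure endosperm averaged 489 ± 44.1 normalised CPM and embryo 12.0 ± 9.57 (SD, n = 3 each), a log2 difference of 5.51 ± 0.56 (SE) with adjusted p = 1.24e-06 in edgeR's quasi-likelihood test after Benjamini-Hochberg adjustment over 12595 genes. Adjusted p stayed under the threshold of 0.05 in all alternatives, with values up to 0.00131.

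The order of NARS1 levels, from high to low, was dme, full endosperm, pure endosperm, met1, fie and embryo. The dme value lay just above the higher full library. Full endosperm averaged 522 ± 331 normalised CPM (SD, n = 2), and its range enclosed those of pure endosperm and of met1. The fie value lay under all wild-type endosperm libraries. None of the comparisons with pure endosperm was called: the log2 difference was 0.00 ± 0.52 (SE; adjusted p = 1 in edgeR) in dme, -1.51 ± 0.73 (adjusted p = 0.127) in fie, -0.56 ± 0.71 (adjusted p = 0.748) in met1 and -0.32 ± 0.55 (adjusted p = 0.773) in full endosperm. The fie difference was called without pure replicate 1 (-1.24, adjusted p = 0.0338) and without embryo replicate 1 (-1.18, adjusted p = 0.0476), but not without both of these LCM-titled libraries (-1.10, adjusted p = 0.063).

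**Figure D1:**
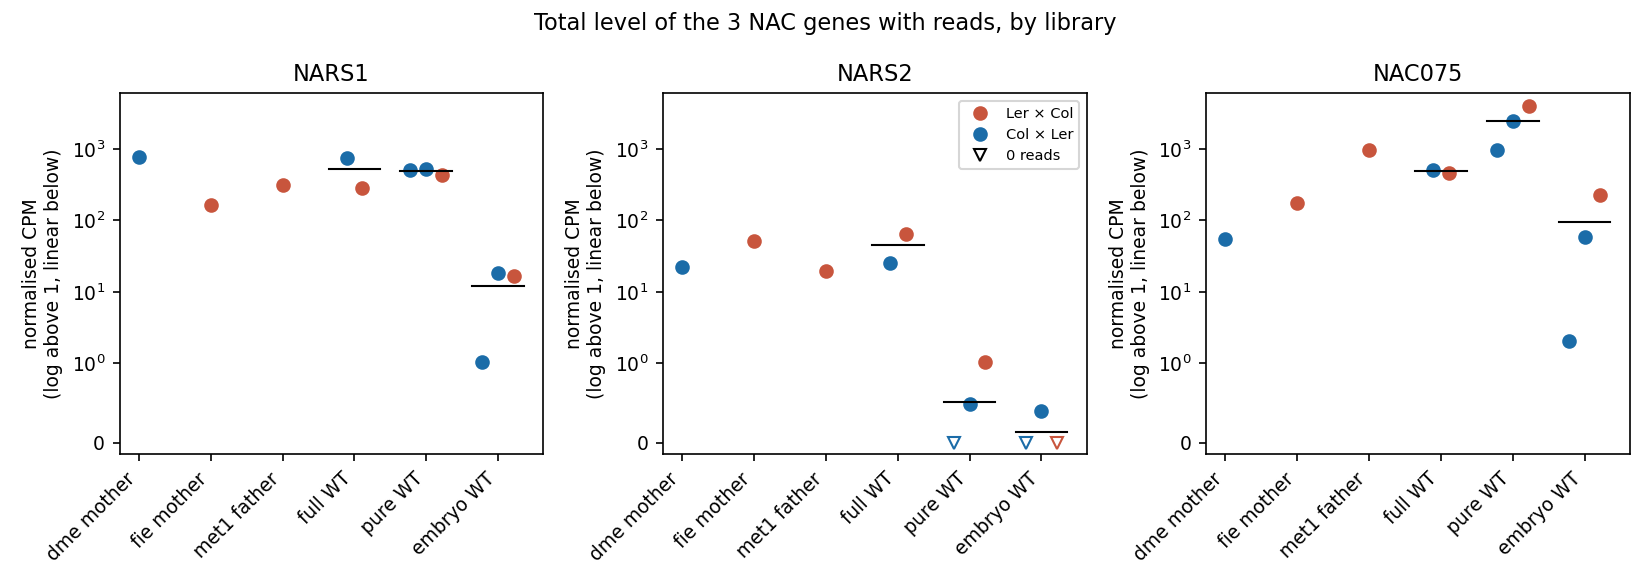
Total allele reads of NARS1, NARS2 and NAC075 in normalised CPM (y axis, logarithmic above 1 and linear below) in the 11 libraries (x axis, by group), coloured by cross direction. Points are libraries, bars are group means and triangles mark libraries with 0 reads. NARS2 lies at 1.05 or below in pure endosperm and between 19.5 and 65.5 in full and mutant endosperm, whereas NAC075 is highest in pure endosperm.

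The parental origin of NARS1 reads changed with the direction of the cross. In Ler × Col pure endosperm 378 maternal and 458 paternal reads gave a maternal share of 45.2% (exact 95% interval 41.8% to 48.7%). In Col × Ler pure endosperm 185 maternal and 30 paternal reads gave 86.0% (80.7% to 90.4%) in the LCM-titled library, and 956 and 122 reads gave 88.7% (86.6% to 90.5%) in the other. Intervals cover counting error only. Full endosperm showed the same split, with 58.8% (56.1% to 61.5%) in Ler × Col from 762 maternal and 533 paternal reads, and 94.1% (93.1% to 94.9%) in Col × Ler from 2591 and 163. In both preparations the Ler × Col share was under the genome dose and the Col × Ler share above it. Embryo held 7 maternal and 7 paternal reads in Ler × Col, and 39 and 8 in Col × Ler (83.0%, 69.2% to 92.4%). The LCM-titled embryo library had 1 read, so its share is not given.

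A reciprocal pair splits the bias into a part that follows the parent and a part that follows the ecotype. Each direction has 1 library here, so other differences between the 2 libraries also enter both parts. The counting errors do not cover them. The seed coat list, for one, summed higher in Col × Ler than in Ler × Col. The sums were 6156 against 3811 normalised CPM in dissected pure endosperm and 16962 against 10169 in full endosperm. Averaged over the dissected pure libraries of both directions on the log2 scale, NARS1 had a parental log2 ratio (maternal over paternal) of 1.34 and a Col over Ler log2 ratio of 1.62, with a counting error of 0.09 for each. The parental part corresponds to a maternal share of 71.7%, beside a median parental log2 ratio of 1.07 over 7158 genes. The ecotype part is a 3.08-fold excess of Col reads, and 5.45% of those genes had one as high. In full endosperm the parental log2 ratio was 2.25 (82.6% maternal, all-gene median 1.46) and the Col excess 3.33-fold, as high in 4.94% of 9174 genes. Both preparations gave a similar Col excess, and the maternal part was the larger in full endosperm. The summed seed coat list was also higher there, through TT10, with 2 of 14 tested genes called higher and 1 lower, where 10.9% of all genes were called. The part of seed coat RNA in this was not tested.

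With a dme or fie mother, NARS1 reads were nearly all maternal. The dme library (Col × Ler) held 4414 maternal and 25 paternal reads, a share of 99.4% (99.2% to 99.6%), against 88.7% in the same-cross pure library. The fie library (Ler × Col) held 701 and 7, a share of 99.0% (98.0% to 99.6%), against 45.2% in the same-cross pure library. Shares of at least 90% were common: 49.9% of measured genes reached one in dme, 27.4% in fie and 21.1% in met1. They made up 13.5% (Ler × Col) and 16.2% (Col × Ler) in full endosperm, 7.72% and 10.2% in dissected pure endosperm, and 1.61% and 2.91% in dissected embryo, in the same order of crosses. The met1 library (Ler × Col) held 229 and 61 reads, or 79.0% (73.8% to 83.5%).

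To set aside the growth of the maternal total, paternal reads were also scaled to all paternal reads of a library. NARS1 then had 48.1 reads per 1000000 paternal reads in dme, against 148 in same-cross pure endosperm, a value 3.08-fold lower (counting interval 2.09 to 4.76). In fie it had 8.18, against 487 in same-cross pure endosperm, a value 59.5-fold lower (28.9 to 148). In met1 it had 218, against the same 487, a value 2.23-fold lower (1.74 to 2.91). The maternal reads of NARS1 moved the other way in dme, with 763 normalised CPM against 466 in same-cross pure endosperm. In fie they were at 161, against 199, and in met1 at 248, against 199. Scaled to all maternal reads of a library, they were at 241 per 1000000 in fie, against 199 in same-cross pure endosperm. Their direction in fie thus depended on the scaling. On that scale they were also higher in dme (1062 against 509) and in met1 (294 against 199). In fie the paternal reads of NARS1 were at 1.61 normalised CPM, against 241 in same-cross pure endosperm, so most of the difference in its total lay on the paternal allele.

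**Figure D2:**
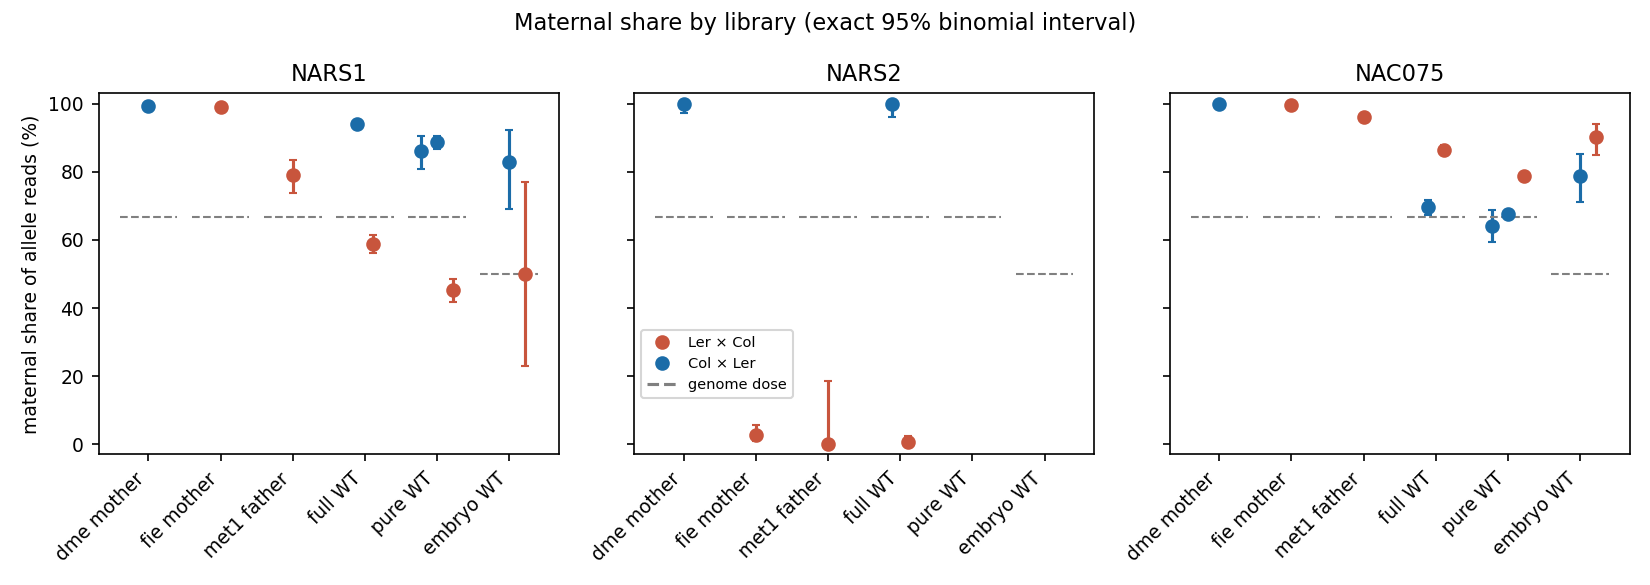
Maternal share of allele reads in percent (y axis) of NARS1, NARS2 and NAC075 for each library with at least 10 reads of the gene (x axis, by group), coloured by cross direction, with exact 95% binomial intervals and dashed lines at the genome dose. NARS1 and NARS2 are less maternal in Ler × Col than in Col × Ler in wild type, NAC075 is more maternal, and the dme library is at 99.4% or above for each of the 3 genes.

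NARS2 was almost absent from pure endosperm and embryo and was measured in the full and mutant libraries. It had 22.6 normalised CPM in dme, 51.5 in fie and 19.5 in met1 endosperm. Full endosperm held 65.5 (Ler × Col) and 25.5 (Col × Ler). Pure endosperm held 0, 0.49 and 1.05 normalised CPM (0, 1 and 2 reads) and embryo 0, 0.40 and 0 (0, 1 and 0 reads). The ranges of full and pure endosperm did not overlap, and each mutant library lay above all pure libraries. The levels in dme, met1 and Col × Ler full endosperm were close together.

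Since the pure libraries held so few reads, the fold was taken against the pure library of the same cross with its counting interval. Full endosperm was 62.3-fold higher than pure endosperm in Ler × Col (17.1 to 516) and 52.4-fold higher in Col × Ler (9.18 to 2092). NARS2 was 46.5-fold higher in dme (8.20 to 1849), 48.9-fold higher in fie (13.4 to 407) and 18.6-fold higher in met1 (4.44 to 165). In edgeR the adjusted p was 3.13e-05 for full endosperm, 4.75e-05 for dme, 2.28e-05 for fie and 0.0142 for met1, each against pure endosperm. The met1 call was lost without pure replicate 3 (adjusted p = 0.307) and without the cross set term (adjusted p = 0.0668). That term holds cross direction and LCM title together. NARS2 passed the filter on low counts through the libraries where it was high, so these adjusted p-values are no independent support for a difference. The summed seed coat list was higher in each of these libraries than in all pure libraries, but not in full replicate 2 once TT10 was left out, and not for every gene of the list. In the Ler × Col libraries the mother, and so the seed coat, was Ler. Their NARS2 reads were nearly all assigned to Col: 293 of 295 in full endosperm, 218 of 224 in fie and 18 of 18 in met1. The parts of seed coat RNA and of read assignment in the result were not tested. Within a library NARS2 had 0.526 reads to 1000 reads of the seed coat list in dme, 2.41 in fie and 1.36 in met1. It had 6.44 (Ler × Col) and 1.51 (Col × Ler) in full endosperm, and 0, 0.0791 and 0.276 in pure endosperm. The pure ratios rest on 0, 1 and 2 reads of NARS2. TT10 made up most of the list sum in dme but not in pure replicate 1. What set these ratios was not tested. The difference between pure endosperm and embryo rests on 3 reads against 1 and was not called (adjusted p = 0.708).

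Nearly all NARS2 reads were assigned to Col whichever parent was Col. In Ler × Col crosses they were paternal. The fie library held 6 maternal and 218 paternal reads, a maternal share of 2.68% (0.99% to 5.74%), met1 held 0 and 18 (0% to 18.5%) and full endosperm 2 and 293 (0.678%, 0.0822% to 2.43%). In Col × Ler crosses they were maternal: 131 of 131 reads in dme (97.2% to 100%) and 93 of 93 in full endosperm (96.1% to 100%). The maternal share of NARS2 thus followed the direction of the cross, and its mean of 50.3% ± 70.2 in full endosperm (SD, n = 2) describes neither library. The Col over Ler log2 ratio of the full endosperm pair was 7.21 with a counting error of 1.12, as high in 0.153% of 9174 genes. Over all libraries 82 of 11164 genes, or 0.735%, had a Col share of at least 95% in every library with at least 10 reads, and NARS2 was among them. The part of read assignment in this was not tested.

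NAC075 was highest in pure endosperm. It had 55.5 normalised CPM in dme, 174 in fie and 963 in met1 endosperm. Full endosperm held 469 (Ler × Col) and 503 (Col × Ler) normalised CPM. Pure endosperm held 4057 in Ler × Col, 969 in the LCM-titled Col × Ler library and 2502 in the other. Embryo held 2.07, 57.7 and 225. All pure libraries lay above all other libraries, the LCM-titled one only just above met1. The spread was wide in pure endosperm and embryo, with means of 486 ± 23.6 in full endosperm (SD, n = 2), 2509 ± 1544 in pure endosperm and 95 ± 116 in embryo (SD, n = 3 each). From high to low the order was pure endosperm, met1, full endosperm, fie, embryo and dme, and both fie and dme lay within the range of the embryo libraries.

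NAC075 fell in dme endosperm, with a log2 difference to pure endosperm of -5.79 ± 1.19 (SE; adjusted p = 0.00371 in edgeR). It fell in fie endosperm too, with a log2 difference of -5.08 ± 1.15 (SE; adjusted p = 0.00608). Both calls were lost without the cross set term (-5.50, adjusted p = 0.0943 in dme and -3.85, adjusted p = 0.165 in fie) and held in the other alternatives. In met1 the difference of -2.61 ± 1.01 (adjusted p = 0.203) was not called, although 7 of 14 alternatives called it. In full endosperm NAC075 was lower than in pure endosperm, at -3.04 ± 0.77 (SE; adjusted p = 0.0274). That call was lost without full replicate 2 (-2.45, adjusted p = 0.093) and without the cross term (-2.37, adjusted p = 0.341). Against embryo it was higher in pure endosperm by 5.48 ± 0.71 (SE; adjusted p = 0.000148), a call kept in all alternatives. The pure libraries enter every comparison with the mutants and with full endosperm, so these results share their reference libraries. Genes of the endosperm list went both ways beside it. Of these, AGL62 had 0, 0 and 1 reads in pure endosperm and CKX2 had 0, 5 and 3. Both passed the count filter only through libraries where they were high, so their calls are no independent support for a difference. In dme 3 of the 8 tested were higher, among them AGL62 and CKX2, and 2 lower, and in fie 4 were higher and 3 lower. Among all genes 27.0% were called in dme and 29.8% in fie. In full endosperm and in met1 the 1 gene called was ALE1, which was lower. The part of endosperm RNA in these results was not tested.

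**Figure D3:**
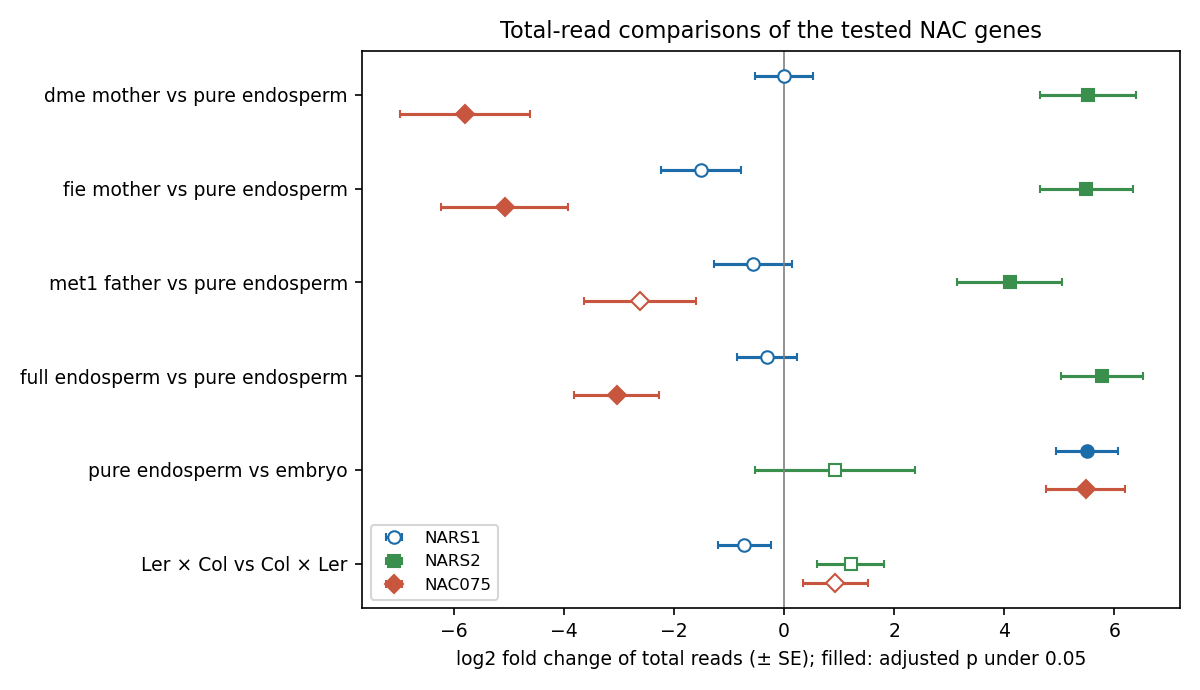
Log2 fold change of total reads (x axis, points) with its standard error (bars) for NARS1, NARS2 and NAC075 in the 6 comparisons (y axis). Filled symbols have an adjusted p under 0.05 in edgeR. NAC075 is at -5.79 in dme and -5.08 in fie, NARS2 is positive in the mutant and full endosperm comparisons, where its fitted value rests on 3 pure reads, and NARS1 is called in pure endosperm against embryo only.

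The maternal share of NAC075 lay near the genome dose in Col × Ler pure endosperm and above it in the other endosperm libraries. In Ler × Col pure endosperm 6071 maternal and 1645 paternal reads gave 78.7% (77.7% to 79.6%). In Col × Ler, 267 and 149 reads gave 64.2% (59.4% to 68.8%) in the LCM-titled library and 3472 and 1665 gave 67.6% (66.3% to 68.9%) in the other. Full endosperm was at 86.4% (84.8% to 87.8%) in Ler × Col and at 69.5% (67.4% to 71.6%) in Col × Ler. The median gene was at 73.3% and 75.8% in these libraries. A share as high as that of NAC075 was found in 17.6% and 68.4% of measured genes. In Col × Ler full endosperm NAC075 was thus less maternal than the median gene. The share thus differed between cross directions in the opposite way to NARS1, with more maternal reads where the mother was Ler. For the pure pair the parental log2 ratio was 1.47, or 73.5% maternal, and the Col over Ler log2 ratio was -0.41, with a counting error of 0.03 for each. The parental ratio was as high in 19.7% of 7158 genes, and the Col over Ler ratio was as low in 23.9% of them.

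In embryo NAC075 was more maternal than the equal dose, on few reads. The Ler × Col library held 173 maternal and 19 paternal reads, or 90.1% (85.0% to 93.9%), and the Col × Ler library 115 and 31, or 78.8% (71.2% to 85.1%). The LCM-titled embryo library held 0 and 2. For the dissected pair the parental log2 ratio was 2.51 (counting error 0.23), as high in 0.46% of 5432 genes, whose median was 0.05. The dissected embryo libraries also held EPR1, at 1181 and 8327 normalised CPM, and TT10 at 221 and 350, while the LCM-titled one had 3.11 of each. The part of endosperm or seed coat RNA in the embryo share was not tested.

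Paternal reads of NAC075 were almost lost in dme and fie endosperm. A maternal share as high as that of NAC075 was found in 12.6% of measured genes in dme, 8.39% in fie and 10.9% in met1. The dme library had 321 maternal reads and 0 paternal reads, a share of 100% (98.9% to 100%), where the same-cross pure library had 1665 paternal reads. Scaled to all paternal reads this is at least 350-fold lower in dme than in pure endosperm, taking 3 reads in the dme library as the floor. The fie library had 757 maternal and 2 paternal reads, or 99.7% (99.0% to 100%), which is 2.34 reads per 1000000 paternal reads, against 1748 in same-cross pure endosperm. That ratio of 748-fold has a counting interval of 207 to 6175. The met1 library had 853 and 35 reads, or 96.1% (94.6% to 97.2%). Its 125 reads per 1000000 paternal reads were 13.96-fold lower than in same-cross pure endosperm (10.04 to 20.04). Maternal reads were lower too, at 55.5 normalised CPM in dme against 1691 in same-cross pure endosperm, and at 174 in fie and 925 in met1 against 3192. In all 3 mutant libraries the paternal allele was thus further under its pure endosperm level than the maternal allele.

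**Figure D4:**
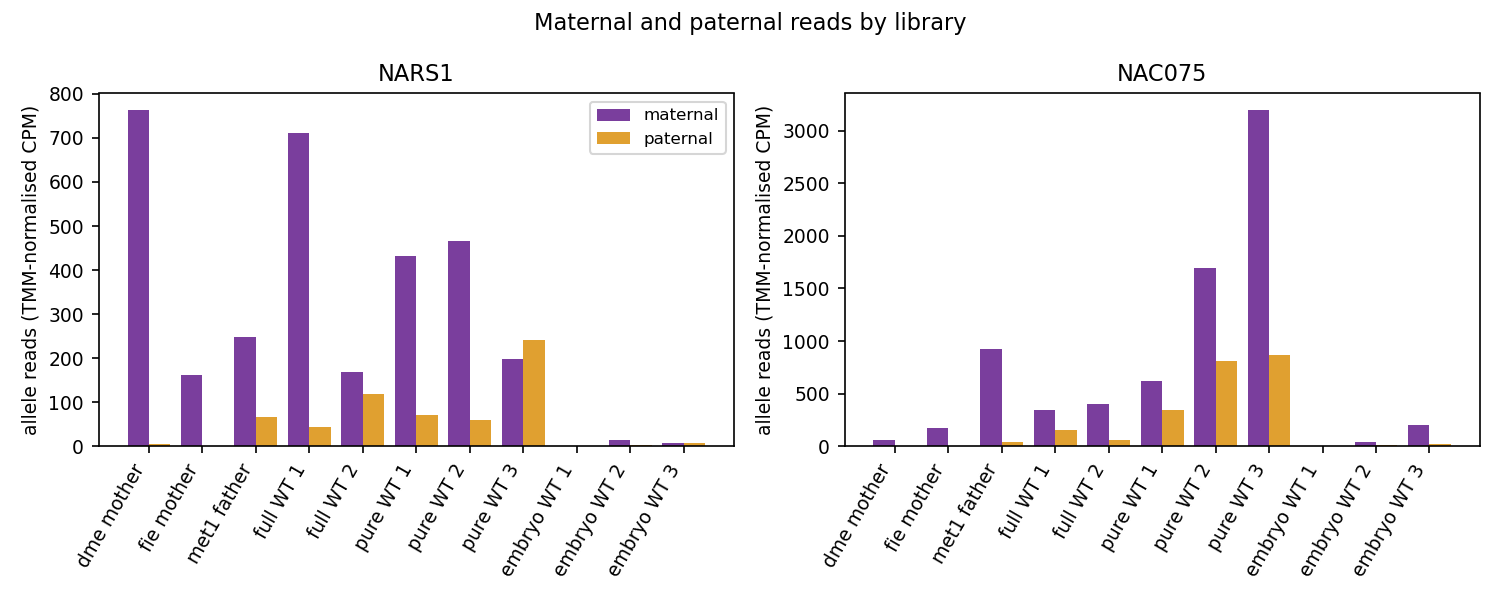
Maternal and paternal reads in normalised CPM (y axis) of NARS1 and NAC075 in each of the 11 libraries (x axis). The paternal bars of NAC075 are at 0 in dme and 0.46 in fie, and between 347 and 865 in pure endosperm.

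The direction of the cross had no called effect on the total of any of the 3 genes. The log2 difference of Ler × Col over Col × Ler was -0.72 ± 0.48 (SE) for NARS1 and 0.93 ± 0.60 for NAC075 (adjusted p = 1 each in edgeR), and 1.21 ± 0.61 for NARS2 (adjusted p = 0.983). None had an unadjusted p under 0.05, and DESeq2 called none. Of all genes 0.27% were called in that comparison, 0.127% higher and 0.143% lower.

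Over the other comparisons 3 of the 4 genes could be tested. In dme 1 was higher and 1 lower, where 27.0% of all genes were called (14.1% higher, 12.9% lower). In fie 1 was higher and 1 lower, where 29.8% were called (15.8% higher, 14.0% lower). In met1 1 was higher, where 3.63% were called (2.24% higher, 1.39% lower). In full endosperm 1 was higher and 1 lower, where 10.9% were called (6.21% higher, 4.72% lower). In pure endosperm against embryo 2 were higher, where 23.5% were called (13.7% higher, 9.78% lower). Since NARS2 passed the count filter only through the libraries where it was high, these counts are no support for a pattern of the family. The split over all genes depended on the scaling. In dme 1775 genes were higher and 1630 lower, but 3291 and 963 with library totals in place of TMM. In fie 1990 were higher and 1763 lower, but 3221 and 1178 with library totals. In met1 282 and 175 became 280 and 62, in full endosperm 782 and 595 became 957 and 284, and in pure endosperm against embryo 1726 and 1232 became 1139 and 2194. The called differences of NARS1, NARS2 and NAC075 kept their direction and call under that scaling.

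Each of the NARS genes lies beside another NAC gene. NAC019 (AT1G52890), a NAC gene of the abscisic acid and jasmonate responses, is the next annotated gene to NARS2. NAC055 (AT3G15500), its close relative, is the nearest protein-coding neighbour of NARS1 on one side. NAC055 had 0 reads in all libraries. NAC019 had 5.70 normalised CPM in dme, 8.96 in fie and 34.7 in met1, 39.5 and 63.7 in full endosperm, 18.6, 23.4 and 53.6 in pure endosperm, and 0, 1.58 and 2.35 in embryo. It thus had reads in all pure endosperm libraries, where NARS2 had 0, 1 and 2. The levels of the 2 genes were not compared. NAC019 fell in dme by 2.25 ± 0.68 (SE; adjusted p = 0.015 in edgeR) and in fie by 2.48 ± 0.67 (adjusted p = 0.00599) on the log2 scale, while its neighbour NARS2 was higher in both. Without the cross set term both calls were lost (adjusted p = 0.0603 in dme and 0.118 in fie). The dme call was also lost without pure replicate 2 (adjusted p = 0.0758), without pure replicate 3 (0.0623) and with library totals in place of TMM (0.109), and the fie call without pure replicate 3 (0.154). In full endosperm the difference was 0.44 ± 0.46 (adjusted p = 0.594). The maternal share of NAC019 was 66.67% (56.6% to 75.7%) in Ler × Col and 64.6% (49.5% to 77.8%) in Col × Ler dissected pure endosperm, both at the genome dose within counting error.

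Among the other 96 NAC family genes, 30 could be tested. Of all tested genes 27.0% were called in dme, 29.8% in fie, 3.63% in met1 and 10.9% in full endosperm. In pure endosperm against embryo 23.5% were called, and for cross direction 0.27%. The counts below are to be read beside these shares. The count filter keeps a gene that is high in a single library. NAC010, with 0, 1 and 2 reads in pure endosperm, passed it only through libraries where it was high. Its adjusted p-values against pure endosperm are therefore no independent support for a difference. In dme 7 were higher and 5 lower, and the median log2 was -0.04, against 0.15 over all genes. NAC102 was higher by 4.05 ± 0.78 (SE) on the log2 scale (adjusted p = 0.00036 in edgeR). NAC099 had 0 reads in dme and in fie, and 14.0, 18.0 and 23.7 normalised CPM in pure endosperm, with adjusted p = 5.4e-05 in dme and 8.24e-05 in fie. In fie 4 were higher and 9 lower (median -0.96, all genes 0.21), but 6 higher and 4 lower with library totals in place of TMM. In met1 1 was higher, NAC010 (SND3, a NAC gene of fibre walls), and 0 were lower (median -0.02, all genes -0.07). In full endosperm 4 were higher and 1 lower (median 0.33, all genes 0.11), led by NAC010 with 48.9 and 30.8 normalised CPM, against 0, 0.49 and 1.05 in pure endosperm (adjusted p = 0.000112). In pure endosperm against embryo 10 were higher and 5 lower (median 0.63, all genes 0.05), among them ANAC087, a NAC gene of programmed cell death in the root cap, at 4.55 ± 0.52. In Ler × Col against Col × Ler 1 was higher, NAC016 at 3.22 ± 0.65 (0 with library totals in place of TMM), and 0 were lower. Of 14 NAC genes of vessels and fibres, the pathway in which NAC075 is known, 2 could be tested, NAC010 and XND1. XND1, a repressor of vessel formation, was lower in pure endosperm than in embryo at -4.29 ± 0.59. In fie it had 0 reads, against 0, 5 and 6 reads (0, 2.44 and 3.15 normalised CPM) in pure endosperm (adjusted p = 0.0205 in edgeR). That call thus rests on few reads. NAC010 had 5.28 normalised CPM (23 reads) in fie and 11.9 (11 reads) in met1. It was higher there than in pure endosperm, which held 0, 1 and 2 reads (adjusted p = 0.0322 and 0.033 in edgeR). Neither XND1 nor NAC010 was called in dme.

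Genes that share the integument with NARS1 and NARS2 were counted from lists. Of all tested genes 14.1% were called higher in dme, 15.8% in fie, 2.24% in met1 and 6.21% in full endosperm. In pure endosperm against embryo 13.7% were called higher and 9.78% lower. Of 17 integument and seed coat regulators 8 could be tested. Among them SHP1, with 0, 1 and 3 reads in pure endosperm, passed the count filter only through libraries where it was high. Its calls against pure endosperm are thus no independent support for a difference. In dme 6 were higher and 0 lower, with the MADS genes STK at 4.81 ± 0.70 (SE) and SHP1 at 5.06 ± 0.90 on the log2 scale, and in fie 4 were higher and 0 lower, with TT8 at 2.85 ± 0.53. In met1 2 were higher (TT16 and TT8), in full endosperm 2 (SHP1 and TT8), and in pure endosperm against embryo 2 were higher and 1 lower. Of the 18 seed coat genes 14 could be tested. In dme 10 were higher, in fie 3 (9 with library totals in place of TMM), in met1 2, in full endosperm 2 with 1 lower, and in pure endosperm against embryo 8 with 1 lower. NARS2, which passed the count filter only through libraries where it was high, was higher in each of the 4 comparisons with pure endosperm. NARS1 was called in none of them.

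Of 12 proteases and nucleases of cell death, the process that NARS1 and NARS2 are known to affect in integuments, 9 could be tested. The vacuolar processing enzyme GAMMA-VPE was higher in dme at 3.49 ± 0.50 (SE) on the log2 scale, in fie at 2.68 ± 0.52, in met1 at 2.27 ± 0.53 and in full endosperm at 2.95 ± 0.42, each against pure endosperm. ALPHA-VPE was lower in dme at -5.25 ± 0.83 and in fie at -6.30 ± 0.91. In dme and in fie 2 genes of the list were higher and 3 lower. Among all genes 27.0% were called in dme, 29.8% in fie, 3.63% in met1, 10.9% in full endosperm and 23.5% in pure endosperm against embryo. In met1 2 were higher, in full endosperm 3, and in pure endosperm against embryo 5, with none lower in these 3 comparisons. For cross direction no gene of the seed coat, regulator, cell death, vessel, endosperm and embryo lists was called in edgeR. Of 12 endosperm genes 8 could be tested, of which 3 were higher and 2 lower in dme, 4 and 3 in fie, 0 and 1 in met1, 0 and 1 in full endosperm, and 5 and 0 in pure endosperm against embryo. Of 15 embryo genes 9 could be tested, of which 1 was higher and 5 lower in dme and also in fie, none was called in met1, 2 were higher and 2 lower in full endosperm, and 1 was higher and 4 lower in pure endosperm against embryo.

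The genes whose levels ran most like those of each member were found among 9453 others by the root mean square difference of log2(CPM + 1) over the 11 libraries, each gene centred on its mean. These libraries share tissues and genotypes, so likeness over them is a description. Nearest to NARS1 were GA3OX4, a gibberellin synthesis gene (difference 0.63), AT3G25260 (0.63) and SUS1, a sucrose synthase (0.63), against a median difference of 2.75 over all genes. GA3OX4 had 566 CPM in dme, 89.2 in fie, 119 in met1, 131 in full endosperm, 145 in pure endosperm and 4.81 in embryo (means where there are replicates). Nearest to NARS2 were PDLP6, of a family of plasmodesmata proteins (0.55), AT5G46080 (0.58) and AT3G26440 (0.65), with a median of 2.50. All 3 had 0 CPM in embryo and 1.08 CPM or less in pure endosperm. Nearest to NAC075 were JLO, a LOB domain transcription factor (0.76), AT3G11160 (0.89) and AT1G78520 (0.95), with a median of 2.92. JLO had 7.91 CPM in dme, 6.11 in fie, 152 in met1, 58.0 in full endosperm, 143 in pure endosperm and 7.41 in embryo.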

How the data were processed

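Each deposited table gives read counts per gene. The authors aligned reads to cDNA models of both ecotypes and counted those with fewer mismatches to either one, per the readme beside the files. They used Bowtie, per the submitters' processing notes. Its version, the annotation, read length, strand use and treatment of multiple matches are not stated there. No genome build is named, so no coordinates are given. The TAIR10.1 gene table (27688 of 28523 identifiers matched) served for names, neighbours and transcript comparison.

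Columns were named maternal and paternal from the titles. Maternal shares have exact binomial 95% intervals, and their group means use libraries with at least 10 reads of a gene. Reciprocal log2 ratios add 0.5 reads to each count. Both alleles were summed and all 11 libraries entered 1 edgeR fit (version 4.0.16 in R 4.3.3; TMM, filterByExpr, robust quasi-likelihood test), with group and cross set (LCM-titled, other Col × Ler, Ler × Col) as terms. A mutant group of 1 library is assumed to vary like the other groups. Each group has at most 1 library per cross set, so the fit has no replicates within a cell of group and cross set. Its error is the misfit of added group and cross set effects, moderated over genes. A gene was called at an adjusted p (Benjamini-Hochberg) under 0.05. The fit was also run on simulated counts with the same spread for every gene and no effect of cross set. That run cannot show how the fit performs at the spread of these libraries. Pairs of libraries of 1 group differed by more than sampling noise, with chi-square over degrees of freedom between 16.4 and 74.1 (7 pairs).

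Alternatives were RLE factors, DESeq2 1.42.0, no count filter, no cross set term, each wild-type library left out, both LCM-titled libraries left out and, chosen after seeing the data, library totals without TMM. The members and gene lists were chosen with earlier results of these data known. Named besides them are the NAC neighbours, the 3 most alike genes per member and up to 4 called genes per list by p.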

Additional observations from a re-analysis of the deposited data

Results flagged for a closer look

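The maternal share of NARS1 lay on opposite sides of the genome dose of 2 in 3 in the cross directions in all wild-type endosperm libraries. It was 45.2% in pure and 58.8% in full Ler × Col endosperm, against 86.0% and 88.7% in pure and 94.1% in full Col × Ler endosperm. The same held for NARS2 in full endosperm, at 0.678% in Ler × Col against 100% in Col × Ler. These differences between directions were not tested.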

How the results depend on the processing

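The number of the 4 genes called stayed at 2 for pure endosperm against embryo and at 0 for cross direction in all alternatives. Without the cross set term it fell to 1 in dme, in fie and in full endosperm, and to 0 in met1. The cause was not tested. With single libraries left out it ran from 1 to 2 in full endosperm (1 without full replicate 2) and from 0 to 2 in met1 (0 without pure replicate 3). In met1 it was 2, against 1, with no count filter and without both LCM-titled libraries. Of 249 values of single genes under alternatives, 234 kept direction and call or were uncalled in both, 6 lost a call, 9 gained one and 0 reversed a called direction. The maternal share of NAC075 in embryo was 56.3% in place of 84.4% when libraries with at least 1 read entered, which adds the LCM-titled library with 2 reads. Library totals without TMM gave a median log2 of all genes of 0.94 in dme, against 0.15, and left the calls of the 4 genes as they were. The 3 mutants have 1 library each, so no replicate spread stands behind them. With 3 reads of NARS2 in pure endosperm in all, its folds have wide counting intervals. Libraries could not be paired by replicate because the labels give no replicate numbers. The cross set term groups libraries by cross direction and LCM title, so the main fit compared groups within such sets.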
